A study of Mus musculus with 10 samples.

Results

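The genes described here are 10 signalling genes of blood vessel growth: Vegfa, Vegfb and Pgf, ligands of the vascular endothelial growth factor (VEGF) family; Nrp1 and Nrp2, the neuropilin coreceptors; Angpt1 and Angpt2, the angiopoietins; Efnb2 and Ephb4, the ephrin-B2 ligand and its receptor; and Thbs1, which encodes the matrix protein thrombospondin-1. They were chosen by name from the 21729 genes of the deposited protein-coding table. All 10 were found, and all 10 passed the filter on low counts that left 20216 genes for testing.

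RNA was sequenced from blastemas, the cell masses that form at an amputated digit tip, of wild type mice and of ΔLARM1/2 mice. The mutants lack a pair of limb enhancers of Lmx1b, a homeobox gene of dorsal limb identity. Each of the 4 groups combined 1 genotype with 1 time: 2 wild type and 3 mutant libraries at 12 days post amputation (dpa), from mice aged 33 days, and the same numbers at 14 dpa, from mice aged 35 days. All mice had a mixed CD1 and C57Bl/6 background, and each library pooled 6 central hindlimb digits, so a library averages over digits. Whether replicates are separate animals is not stated in the labels, and a p-value here reflects only how far these libraries differ, some of which may be technical.

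VEGF-A binds the receptors Flt1 and Kdr on endothelial cells and drives vessel sprouting, and neuropilins bind VEGF and class 3 semaphorins beside those receptors. Angpt1, made largely by perivascular and other mesenchymal cells, activates the endothelial receptor Tek and steadies vessels, while Angpt2 is released by endothelial cells and can oppose it. Ephrin-B2 marks arterial and its receptor EphB4 venous endothelium, and thrombospondin-1 restrains vessel growth; several of these genes are also expressed outside vessels.

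Total expected counts per library ran from 69998104 to 101632364. Lmx1b lay between 1.69 and 2.94 CPM (counts relative to the composition-scaled size of the library) in wild type and between 0.0278 and 0.336 CPM in mutant libraries. Mutant 14 dpa replicate 1, so named in its title, has a genotype tag of wild type, but its Lmx1b level of 0.234 CPM lay in the mutant range, and it was kept as mutant. Its treatment as wild type left 0 of the 10 genes, and 0 of all genes, past the edgeR test over both days, with 6 of the 10 and 5448 of all genes at an unadjusted p under 0.05. In wild type 14 dpa replicate 1, only 81.5% of counts fell on genes of the protein-coding table, against 87.7% to 93.7% elsewhere. That library carried Y-linked counts beside 1292 counts of Xist, which other male libraries held at 11 to 46. Without this library and the oppositely tagged one, 6 of the 10 genes were lower in mutants over both days, 6 at 12 dpa and 3 at 14 dpa. Fewer libraries enter that fit, and how far this alone lowered the counts was not tested.

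Over both days, 7 of the 10 genes were lower in mutant blastemas and none was higher (edgeR quasi-likelihood test with Benjamini-Hochberg adjustment over all genes, threshold 0.05): Vegfa, Nrp1, Nrp2, Angpt1, Angpt2, Efnb2 and Thbs1. Of all tested genes, 43.7% passed in this comparison, 22.2% of all genes lower and 21.5% higher. The median log2 fold change of the 10 genes was -1.02, beside 0.02 for all tested genes. At 12 dpa, 6 of the 10 were lower, where 16.5% of all genes passed and 9.34% were lower. At 14 dpa, 6 were lower, where 33.3% of all genes passed and 17.2% were lower. Vegfb, Pgf and Ephb4 passed in none of these comparisons. With sex as a covariate the counts were 7, 6 and 6, and with the 6 male libraries alone 5, 1 and 3 (both days, 12 dpa and 14 dpa). The male fit also rests on fewer libraries, and the part of this in its lower counts was not tested. In bulk tissue, fewer cells of a type and less RNA per cell cannot be told apart.

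**Figure D1:**
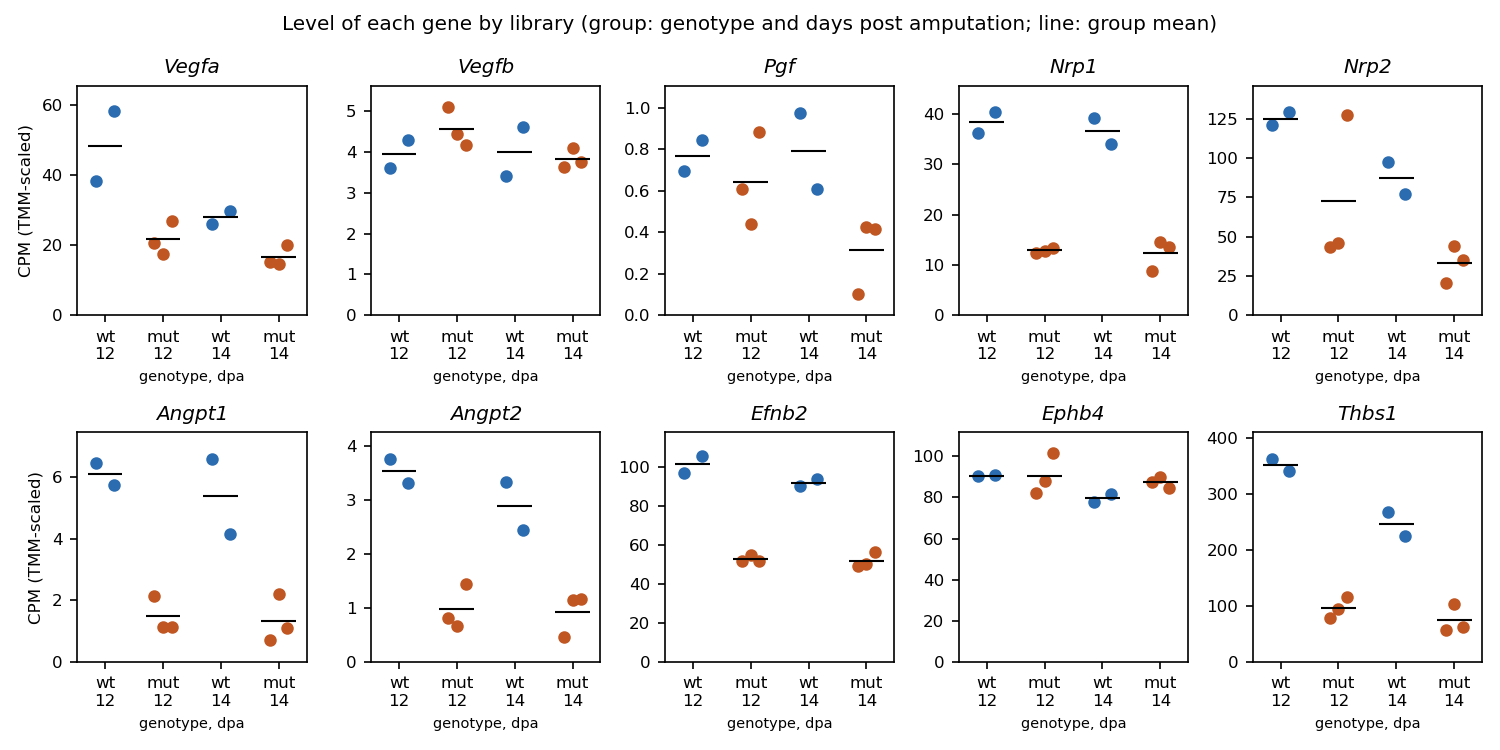
Each panel plots 1 gene's level in CPM (linear axis from 0) in the 10 libraries, grouped by genotype and day, with a line at the group mean. Mutant points of Nrp1, Angpt1, Angpt2, Efnb2 and Thbs1 lie below every wild type point, the points of Vegfb and Ephb4 overlap over both days, and 1 mutant point of Nrp2 at 12 dpa (128 CPM) lies at the wild type level.

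Promoter sequence is shown for pairs of related genes that parted in expression, Efnb2 with Ephb4 and Vegfa with Vegfb. The windows hold the 250 bases before an annotated start, from RefSeq on build GRCm38.p6, where 7 of the 10 genes had an entry. They are chr8:8661243-8661492 on the minus strand for Efnb2, chr5:137349859-137350108 on the plus strand for Ephb4, chr17:46032378-46032627 on the minus strand for Vegfa and chr19:6987652-6987901 on the minus strand for Vegfb. Each is printed 5′ to 3′ with the gene, and capitals mark matches, on either strand, to the hypoxia response cores ACGTG and GCGTG, the homeodomain core TAATTA, the GC box GGGCGG, the forkhead letters TGTTTAC and the RBPJ core TGGGAA.
Efnb2: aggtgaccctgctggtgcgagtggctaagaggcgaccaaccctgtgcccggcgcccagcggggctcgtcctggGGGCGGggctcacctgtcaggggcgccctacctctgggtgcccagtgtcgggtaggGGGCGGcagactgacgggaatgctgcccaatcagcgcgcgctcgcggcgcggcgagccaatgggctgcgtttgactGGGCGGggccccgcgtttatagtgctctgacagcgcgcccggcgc
Ephb4: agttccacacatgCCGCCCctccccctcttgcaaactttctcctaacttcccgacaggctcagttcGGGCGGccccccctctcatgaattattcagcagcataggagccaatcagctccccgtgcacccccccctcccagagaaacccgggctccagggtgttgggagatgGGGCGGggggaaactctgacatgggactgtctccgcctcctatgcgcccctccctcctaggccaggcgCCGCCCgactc
Vegfa: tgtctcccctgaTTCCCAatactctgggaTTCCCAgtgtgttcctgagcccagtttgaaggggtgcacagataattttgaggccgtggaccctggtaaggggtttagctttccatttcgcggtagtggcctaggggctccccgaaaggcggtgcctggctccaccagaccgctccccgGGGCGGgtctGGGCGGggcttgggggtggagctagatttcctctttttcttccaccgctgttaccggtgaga
Vegfb: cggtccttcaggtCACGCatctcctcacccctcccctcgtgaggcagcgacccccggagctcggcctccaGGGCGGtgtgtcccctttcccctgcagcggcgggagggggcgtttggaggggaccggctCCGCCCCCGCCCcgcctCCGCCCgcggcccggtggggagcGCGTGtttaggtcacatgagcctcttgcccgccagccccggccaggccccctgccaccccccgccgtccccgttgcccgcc
All 4 windows hold the GC box, at 3 places in Efnb2, 4 in Ephb4, 2 in Vegfa and 4 in Vegfb, as do 32.7% of the 32851 windows of the table. The hypoxia response cores ACGTG and GCGTG, held by 16.6% and 28.2% of windows, are in none of the Efnb2, Ephb4 and Vegfa windows shown, while Vegfb holds GCGTG at 2 places. A second annotated Vegfa start, with its window at chr17:46025164-46025413, holds each of these cores once. The RBPJ core, held by 21.6% of windows, is at 2 places in the Vegfa window shown. Neither the homeodomain core TAATTA (4.84% of windows) nor the forkhead letters TGTTTAC (3.17%) occur in any of the windows of the 7 genes. GC content was 72.0% for Efnb2, 64.0% for Ephb4, 59.2% for Vegfa and 76.4% for Vegfb, beside a median of 52.4% over all windows. These matches describe letters in a short window and not binding.

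Vegfa (ENSMUSG00000023951), the main driver of endothelial sprouting and a hypoxia-induced gene, was lower in mutants on both days. The wild type libraries of 12 dpa gave 38.3 and 58.3 CPM, and the mutant ones 20.7, 17.6 and 27.0 CPM. Those of 14 dpa gave 26.1 and 29.8 CPM, against 15.3, 14.6 and 20.2 CPM in mutants. In CPM the genotypes did not overlap within either day (in TPM the highest mutant and the lowest wild type library at 12 dpa were level at 10.13), but the highest mutant at 12 dpa lay above the lowest wild type library at 14 dpa. Over both days its log2 difference came to -0.95 (SE 0.16, adjusted p = 0.0018). The 12 dpa value was -1.15 (SE 0.23, adjusted p = 0.0113), and that of 14 dpa -0.74 (SE 0.23, adjusted p = 0.0336). The calls of single days were the less secure: without wild type 12 dpa replicate 2, the highest library, the 12 dpa adjusted p was 0.104, and at 14 dpa it rose to between 0.0799 and 0.128 when wild type replicate 1 or 2, or mutant replicate 1 or 2, was left out. On log2(TPM + 1), where TPM is the deposited abundance relative to transcript length and to the sum of its library, 12 dpa gave an adjusted p of 0.0584 and 14 dpa one of 0.286.

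Vegfb (ENSMUSG00000024962), a VEGF family ligand of Flt1 that is less tied to sprouting, did not pass the test on either day. Wild type levels were 3.61 and 4.29 CPM at 12 dpa, and mutant levels 5.10, 4.45 and 4.17 CPM. Later, at 14 dpa, wild type had 3.41 and 4.60 CPM, and mutants had 3.62, 4.09 and 3.76 CPM. In CPM the genotypes overlapped on both days. In TPM every 12 dpa mutant (4.70, 4.49 and 4.54) lay above both wild type libraries (2.69 and 3.63), and the 14 dpa values overlapped. The log2 difference over both days was 0.07, with a 95% interval of -0.24 to 0.39 (adjusted p = 0.705), so changes of the size seen for Vegfa lay outside it. At 14 dpa its sign depended on the scale, with -0.07 in CPM and 0.15 on log2(TPM + 1), neither past the test.

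Pgf (ENSMUSG00000004791), placental growth factor, another ligand of Flt1, was the lowest of the 10 genes, with 8 to 79 counts per library. Its 12 dpa levels were 0.695 and 0.844 CPM (wild type) against 0.608, 0.439 and 0.884 CPM (mutant), and the genotypes overlapped. Its 14 dpa levels were 0.977 and 0.609 CPM (wild type) against 0.104, 0.428 and 0.416 CPM (mutant), with every mutant below both wild type libraries. The log2 difference of 12 dpa was -0.25 (SE 0.54, adjusted p = 0.775), and that of 14 dpa -1.31 (SE 0.55, adjusted p = 0.0882), which did not pass. A test of the difference between the 2 days did not pass either (log2 difference -1.06, SE 0.77, adjusted p = 0.721).

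Among the 5 VEGF ligands, 2 fell, 1 rose and 2 did not pass the test over both days, where 43.7% of all genes passed. The 2 others beside the members moved in opposite directions. Vegfc, the main lymphatic growth factor, fell from 2.29 ± 0.0768 CPM (SD, n = 4) in wild type to 1.04 ± 0.354 CPM (SD, n = 6) in mutants (log2 fold change -1.15, SE 0.27, adjusted p = 0.00821). Vegfd, another ligand of lymphatic endothelium, rose from 2.28 ± 0.553 to 4.61 ± 1.22 CPM (log2 fold change 1.04, SE 0.22, adjusted p = 0.00487).

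Nrp1 (ENSMUSG00000025810), the coreceptor of VEGF-A in blood endothelium, showed almost the same reduction on each day. Wild type libraries held 36.2 and 40.5 CPM at 12 dpa and 39.2 and 34.2 CPM at 14 dpa. Mutant libraries held 12.3, 12.9 and 13.4 CPM at 12 dpa and 8.80, 14.7 and 13.7 CPM at 14 dpa. Every mutant library lay below every wild type library, with a wide gap. On each day the log2 fold change was -1.57 (SE 0.19), with an adjusted p of 0.00137 for 12 dpa and 0.00121 for 14 dpa. Over both days the level was 2.97-fold lower (adjusted p = 7.1e-05). The call held when any 1 library was left out.

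Nrp2 (ENSMUSG00000025969), a coreceptor in veins and lymphatic vessels that is also found in macrophages and mesenchyme, was lower over both days, but its mutant libraries at 12 dpa were split. At 12 dpa the wild type pair stood at 121 and 129 CPM and the mutants at 43.3, 46.2 and 128 CPM. By 14 dpa wild type held 97.6 and 77.3 CPM and mutants 20.6, 43.9 and 34.8 CPM. The genotypes were apart at 14 dpa, while mutant 12 dpa replicate 3 lay between the wild type libraries of its day. Averaged over the days the log2 difference between genotypes came to -1.09 (SE 0.34, adjusted p = 0.0296). The value of 12 dpa alone, -0.79 (SE 0.48, adjusted p = 0.283), and that of 14 dpa alone, -1.40 (SE 0.48, adjusted p = 0.0533), did not pass. The 14 dpa difference did pass with DESeq2 (adjusted p = 0.00577), limma-voom (0.0433), upper quartile factors in edgeR (0.0425) and a stricter count filter (0.0355). Without mutant 12 dpa replicate 3 the log2 difference was -1.45 over both days (adjusted p = 0.00159), -1.47 at 12 dpa (adjusted p = 0.0236) and -1.43 at 14 dpa (adjusted p = 0.00839). The call over both days was lost when any 1 of 7 other libraries was left out, with adjusted p between 0.0515 and 0.0968, on log2(TPM + 1), where it was 0.0572, and without the filter on low counts, where it was 0.0899. The same mutant library had the highest summed level of 8 monocyte and macrophage markers, 103 CPM. The other mutants held 33.0 to 51.6 CPM and wild type 58.9 to 76.7 CPM. It was also the highest mutant in the sums of blood endothelial, pericyte and smooth muscle, chondrocyte and osteoblast markers. In these it lay below every wild type library, and in the other marker lists it was not the highest mutant. The part of any of these cells in the Nrp2 level was not tested.

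The receptors that work with these ligands and coreceptors fell as well, and all 5 genes of the VEGF receptor list, Nrp1 and Nrp2 included, passed the test over both days. Kdr, the main signalling receptor of VEGF-A, had a log2 fold change of -2.26 (SE 0.23, adjusted p = 0.000223). Flt1, which also acts as a decoy, had -1.81 (SE 0.20, adjusted p = 0.000245), and Flt4, the lymphatic receptor of VEGF-C and VEGF-D, had -2.74 (SE 0.17, adjusted p = 2e-05). Of 12 class 3 semaphorins and plexins, the other partners of neuropilins, 5 fell, 1 rose and 6 did not pass. Of all tested genes, 43.7% passed over both days. Sema3a, a repulsive cue, fell by 1.80 on the log2 scale (adjusted p = 0.000364) and Sema3d by 0.996 (adjusted p = 0.00749), while the semaphorin receptor Plxna2 rose by 0.49 (adjusted p = 0.00395).

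Angpt1 (ENSMUSG00000022309), the agonist of Tek, had the largest fold change of the 10 genes over both days. The wild type libraries had 6.46 and 5.74 CPM at 12 dpa and 6.58 and 4.16 CPM at 14 dpa. Mutant libraries held 2.13, 1.14 and 1.14 CPM at 12 dpa and 0.690, 2.21 and 1.10 CPM at 14 dpa. No mutant library reached the wild type range. Over both days its log2 difference came to -2.03 (SE 0.33, adjusted p = 0.00144), a 4.08-fold lower level. By day it was -2.05 for 12 dpa (adjusted p = 0.0186) and -2.002 for 14 dpa (adjusted p = 0.0121). Leaving out wild type replicate 1 or 2, or mutant replicate 2 or 3, of 12 dpa brought the 12 dpa adjusted p to between 0.0579 and 0.0833, and leaving out wild type 14 dpa replicate 1 brought that of 14 dpa to 0.0832.

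Angpt2 (ENSMUSG00000031465), the context-dependent antagonist from endothelium, fell by a similar amount. In wild type there were 3.76 and 3.31 CPM at 12 dpa and 3.34 and 2.44 CPM at 14 dpa. Mutant libraries held 0.811, 0.659 and 1.44 CPM at 12 dpa and 0.456, 1.14 and 1.17 CPM at 14 dpa, from 35 to 129 counts. Again no mutant library reached the wild type range. Over both days its log2 difference came to -1.75 (SE 0.31, adjusted p = 0.00198), with -1.86 for 12 dpa (adjusted p = 0.0204) and -1.64 for 14 dpa (adjusted p = 0.0193). The 12 dpa adjusted p rose to between 0.0617 and 0.0863 without wild type replicate 1 or 2 or mutant replicate 1 or 2 of that day. At 14 dpa the test no longer passed when wild type replicate 1 was omitted (adjusted p = 0.114) or on log2(TPM + 1) (adjusted p = 0.138).

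In the angiopoietin and Tie list, 6 of 7 genes fell over both days, where 22.2% of all genes fell. The list median was -1.75 on the log2 scale. Tek, the receptor of both angiopoietins, had a log2 fold change of -1.81 (SE 0.22, adjusted p = 0.00036). Its partner Tie1 had -1.75 (SE 0.16, adjusted p = 9.6e-05) and Ptprb, an endothelial phosphatase that acts on Tek, had -1.82 (SE 0.18, adjusted p = 0.000193). The 1 gene that did not pass was Angpt4 (-0.62, adjusted p = 0.254).

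Efnb2 (ENSMUSG00000001300), the arterial ephrin that is also made by other cell types, had the smallest standard error of the genes that fell. Its wild type levels were 97.1 and 106 CPM at 12 dpa and 90.4 and 94.0 CPM at 14 dpa. Mutant libraries held 51.9, 54.8 and 51.9 CPM at 12 dpa and 49.1, 50.5 and 56.5 CPM at 14 dpa. In CPM the highest mutant level was far below the lowest wild type level. Mutants had a 1.84-fold lower level over both days (log2 fold change -0.88, SE 0.07, adjusted p = 5.2e-05). By day the value was -0.94 (12 dpa, SE 0.10, adjusted p = 0.000868) and -0.83 (14 dpa, SE 0.10, adjusted p = 0.00121). On log2(TPM + 1) the 14 dpa value was -0.42, with an adjusted p of 0.0984.

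Ephb4 (ENSMUSG00000029710), the venous receptor of ephrin-B2, passed the test in none of the comparisons. Wild type libraries held 90.4 and 90.8 CPM at 12 dpa and 77.6 and 81.5 CPM at 14 dpa. Mutant libraries held 82.1, 88.0 and 102 CPM at 12 dpa and 87.3, 89.9 and 84.8 CPM at 14 dpa. The genotypes overlapped at 12 dpa, and at 14 dpa each mutant lay above both wild type libraries. The log2 difference over both days was 0.07 (adjusted p = 0.503) with a 95% interval of -0.11 to 0.24, and at 14 dpa it was 0.13 (adjusted p = 0.362). On log2(TPM + 1) the difference over both days was 0.33 (adjusted p = 0.0800), on a scale where the median of all genes stood at 0.14 instead of 0.02.

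Among the 8 B-class ephrins and Eph receptors, Efnb2 alone fell and Ephb6, a receptor without kinase activity, alone rose (log2 fold change 1.09, SE 0.13, adjusted p = 0.000298). The other 6 did not pass the test over both days, and the list median of 0.00 was close to the 0.02 of all genes. Of all tested genes 43.7% passed, a larger share than in this list.

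Thbs1 (ENSMUSG00000040152), the matrix inhibitor of vessel growth, fell alongside the growth factors. In wild type the libraries held 363 and 341 CPM at 12 dpa and 268 and 225 CPM at 14 dpa. Mutant libraries held 78.4, 93.8 and 116 CPM at 12 dpa and 56.7, 104 and 62.4 CPM at 14 dpa. The lowest wild type library was well above the highest mutant. Over both days the level was 3.48-fold lower (log2 fold change -1.80, SE 0.18, adjusted p = 0.000172), with -1.87 at 12 dpa (adjusted p = 0.00259) and -1.73 at 14 dpa (adjusted p = 0.00242), and the calls held when any 1 library was left out. Thbs1 is also abundant in platelets: the summed level of 6 platelet markers was 3.27 to 4.36 CPM in wild type and 2.702 to 4.33 CPM in mutants, with 4 of the 6 under 1 CPM in every library. Of 7 thrombospondins and their receptors, Thbs1 and Thbs2 (-1.78, SE 0.27, adjusted p = 0.00139) fell and Cd47, a receptor found on most cells, rose (0.41, SE 0.07, adjusted p = 0.00222). The other 4 did not pass, and the share of the list that passed was close to the 43.7% of all tested genes.

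**Figure D2:**
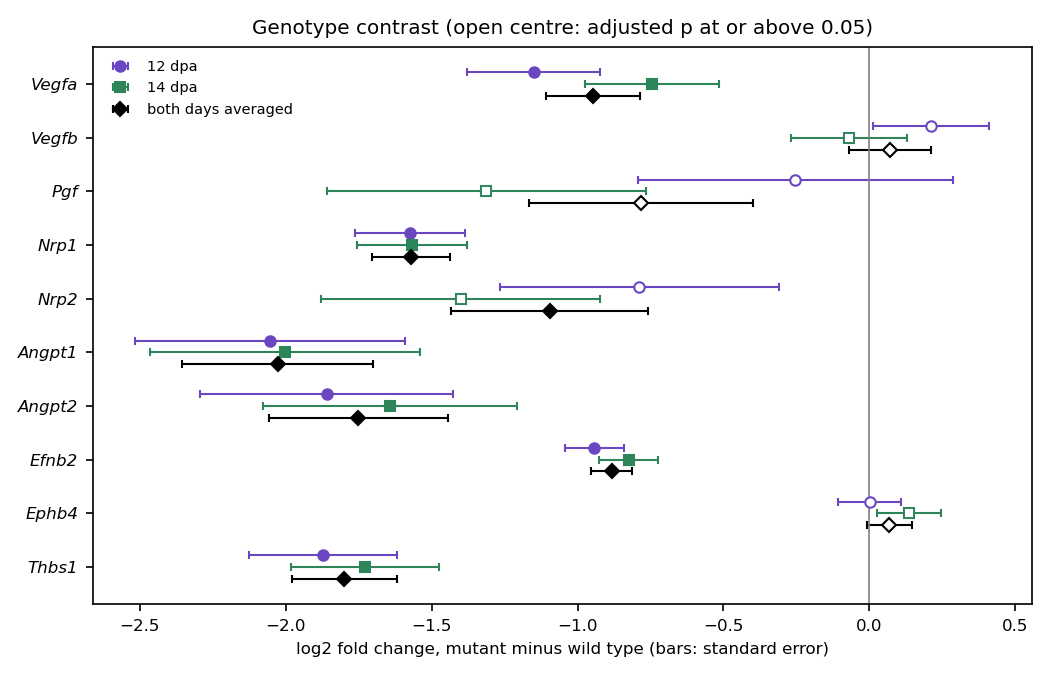
Log2 fold changes of the 10 genes in mutants relative to wild type are plotted for each day and for the average of the days, with bars of 1 standard error. Open symbols did not reach an adjusted p of 0.05. Nrp1 had the same value on each day (-1.57), Efnb2 the shortest bars (0.07 over both days), and Vegfb and Ephb4 lay close to 0.

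Separation of the libraries was also counted, in CPM. At 12 dpa, 6 of the 10 genes had every mutant library below both wild type libraries, as did 25.9% of all tested genes. At 14 dpa it was 8 of 10, against 31.6% of all genes, and Ephb4 was separated upwards, as were 30.8% of all genes. With the days pooled, 5 of 10 had all 6 mutants below all 4 wild type libraries (15.9% of all genes): Nrp1, Angpt1, Angpt2, Efnb2 and Thbs1. In TPM the pooled count was 4, since Efnb2 overlapped (highest mutant 13.0 TPM, lowest wild type 11.2 TPM). The 12 dpa count in TPM was 5 lower and 1 higher (Vegfb), and that of 14 dpa again 8 lower and 1 higher.

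Per length, in TPM, the order of the 10 genes differed between genotypes at the top. In wild type at 12 dpa Thbs1 led with 47.9 ± 2.04 TPM (SD, n = 2), followed by Efnb2 at 18.0 ± 2.96, Ephb4 at 17.1 ± 1.53, Nrp2 at 16.0 ± 2.11 and Vegfa at 14.2 ± 5.73 TPM. These last 4 did not differ beyond their spread. Nrp1 followed at 8.85 ± 1.48 and Vegfb at 3.16 ± 0.665 TPM, and Angpt1, Angpt2 and Pgf lay between 0.495 and 1.18 TPM. In mutants at 12 dpa Ephb4 was first at 21.6 ± 4.48 TPM (SD, n = 3) and Thbs1 next at 16.5 ± 4.61 TPM, with overlapping libraries. At 14 dpa Thbs1 was again first in wild type, at 26.2 ± 1.55 TPM, and Ephb4 in mutants, at 15.3 ± 0.855 TPM, where every Ephb4 value lay above every Thbs1 value. Angpt1, Angpt2 and Pgf were the lowest 3 in each of the 4 groups.

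Ratios within a library set the ligand against its receptor and do not depend on the scaling of that library. The ratio of Efnb2 to Ephb4 in TPM was 0.992 and 1.10 in wild type and 0.569, 0.592 and 0.490 in mutants at 12 dpa. At 14 dpa it was 1.14 and 1.06 in wild type and 0.595, 0.578 and 0.673 in mutants. The ligand and receptor were thus near parity in each wild type library and the ligand was lower than the receptor in each mutant, with no overlap (exact permutation test over 4 wild type and 6 mutant libraries, 2-sided p = 0.00952, adjusted p = 0.0159 over 5 ratios).

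Vegfa to Vegfb, the sprouting ligand against its relative, ran from 2.31 to 5.02 in wild type and from 1.39 to 2.23 in mutants (same exact permutation test, p = 0.00952, adjusted p = 0.0159). Vegfa to its receptor Kdr moved the other way, from 1.72 to 3.41 in wild type and from 4.62 to 9.13 in mutants (exact permutation p = 0.00952, adjusted p = 0.0159). Kdr thus fell further than Vegfa. The ratio of Vegfa to Flt1, not among those tested, was 1.89 to 4.05 in wild type and 3.54 to 8.94 in mutants. It overlapped over both days but was higher in every mutant within each day. Angpt2 to Angpt1 was 0.584 to 0.958 in wild type and 0.438 to 2.53 in mutants, and the genotypes overlapped (exact permutation p = 0.419). Nrp2 to Nrp1 was 5.33 in mutant 12 dpa replicate 3 and between 1.28 and 2.00 in the other 9 libraries (exact permutation p = 0.362 between genotypes). A p of 0.00952 is the smallest that 4 libraries against 6 can give in this test. The permutations did not keep libraries within their day, although ratios can shift with day. In wild type Vegfa to Vegfb averaged 4.39 at 12 dpa and 2.59 at 14 dpa.

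**Figure D3:**
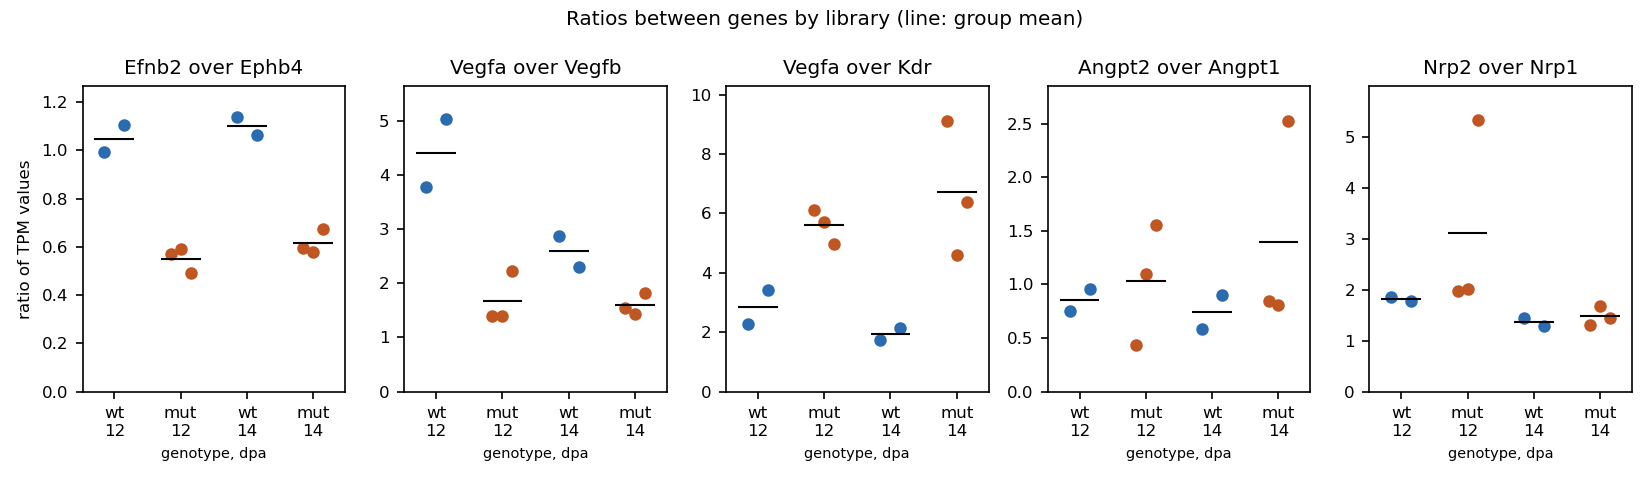
Ratios of TPM values between pairs of genes are plotted by library and group on linear axes from 0, with a line at the group mean. Efnb2 to Ephb4 and Vegfa to Vegfb are lower in all mutant libraries, Vegfa to Kdr is higher in all, and Nrp2 to Nrp1 stands out at 5.33 in 1 mutant library at 12 dpa.

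Markers of endothelial, perivascular and other mesenchymal cells mostly fell over both days, while those of keratinocytes and neutrophils mostly rose. Of all tested genes, 22.2% passed as lower and 21.5% as higher. All 14 blood endothelial markers fell over both days (median log2 fold change -1.76), and their summed level was 243 to 309 CPM in wild type and 52.8 to 102 CPM in mutants. All 6 lymphatic markers fell, as did 10 of 11 pericyte and smooth muscle markers, whose sum was 742 to 977 CPM in wild type and 418 to 638 CPM in mutants. Of 12 blastema fibroblast markers 10 fell, as did 5 of 7 osteoblast, 4 of 5 tested chondrocyte and 5 of 8 monocyte and macrophage markers, while 8 of 12 keratinocyte markers rose. Of 7 Schwann cell markers 1 rose and 6 did not pass, with a sum of 112 to 121 CPM in wild type and 176 to 230 CPM in mutants. In summed level, the widest shifts were in the nail matrix list and in neutrophils. By list median, chondrocyte (-3.31), lymphatic (-2.63) and osteoblast markers (-2.33, log2 fold change) shifted further than neutrophil markers (2.10). All 7 genes found of the 8 in the nail matrix list fell (median log2 fold change -7.72), and Krt85 was not found. Their summed level was 8713 to 22376 CPM in wild type and 118 to 529 CPM in mutants. Of 5 tested neutrophil markers 4 rose, and the sum of the list was 9.001 to 20.02 CPM in wild type, 321 to 631 CPM in mutants at 12 dpa and 55.0 to 94.3 CPM in mutants at 14 dpa. The part of cell numbers in the changes of the 10 genes was not tested.

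Set against 100 CPM of the summed endothelial markers, the 10 genes fell into different patterns, given here as descriptions. The summed markers averaged 283 CPM in wild type and 79.8 CPM in mutants. A gene unchanged in CPM, or one that fell less than this sum, is therefore higher in mutants on this measure. The share of all genes that separated in this way was not counted. Thbs1 was 76.6 to 149 in wild type and 76.7 to 122 in mutants, and Angpt2 was 0.831 to 1.55 and 0.851 to 1.43, and for both the genotypes overlapped. Angpt1 (1.42 to 2.66 in wild type, 1.12 to 3.32 in mutants) also overlapped, as did Pgf over both days (0.208 to 0.316 and 0.197 to 0.947), although at 12 dpa its mutants were all higher. Nrp1 overlapped at 12 dpa (14.0 to 14.9 and 13.2 to 19.2), but at 14 dpa each mutant lay above wild type (11.6 to 12.7 against 14.6 to 16.8). Vegfa was higher in every mutant within each day, at 15.8 to 20.2 against 22.7 to 32.3 for 12 dpa and 8.44 to 10.2 against 14.5 to 29.0 for 14 dpa. Nrp2 was so too, at 44.8 to 49.7 against 59.6 to 124.9 and 26.4 to 31.6 against 38.9 to 43.6. Efnb2, although lower per library, was higher per endothelial marker in every mutant, at 50.1 to 93.0 against 29.3 to 39.9 in wild type. Vegfb (1.11 to 1.57 in wild type, 4.06 to 7.95 in mutants) and Ephb4 (25.1 to 37.2 and 89.3 to 165) were separated further. This follows from their nearly unchanged CPM over a lower marker sum.

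Genes downstream of or around these signals were described by fixed lists. Over both days 43.7% of all tested genes passed, 22.2% lower and 21.5% higher. Of 11 genes of endothelial tip cells, the leading cells of a sprout, 7 fell, none rose and 4 did not pass (list median -1.69). Nid2, a basement membrane protein gene, was among them (log2 fold change -2.05, SE 0.18, adjusted p = 9.4e-05), with the netrin receptor gene Unc5b (-1.96, SE 0.18, adjusted p = 0.000117) and Adm, the gene of the vasoactive peptide adrenomedullin (-1.43, SE 0.14, adjusted p = 0.000133). Of 11 Notch genes of sprouting vessels 5 fell, 2 rose and 4 did not pass, and the list median of -0.06 was near that of all genes. Those that fell included Notch4, an endothelial receptor (-1.84, SE 0.16, adjusted p = 9.1e-05), and Dll4, the ligand that limits tip cell number (-1.41, SE 0.20, adjusted p = 0.000798), whereas the Notch targets Nrarp (0.40, adjusted p = 0.0103) and Hes1 (0.27, adjusted p = 0.0270) rose.

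Of 16 hypoxia response genes, the pathway best known for inducing Vegfa, 2 fell, 5 rose and 9 did not pass over both days. The share of the list that passed was close to the 43.7% of all tested genes. Hif1a, the oxygen-regulated factor itself, fell (-1.17, SE 0.13, adjusted p = 0.000255), as did Adm. Egln1, which marks HIF proteins for removal (0.53, SE 0.10, adjusted p = 0.00325), Vhl (0.45, adjusted p = 0.00572), Epas1 (0.61, adjusted p = 0.0132), Pdk1 (0.28, adjusted p = 0.0327) and Egln3 (0.40, adjusted p = 0.0406) rose. The glucose transporter gene Slc2a1, a common HIF target, had a log2 difference of -0.01 (adjusted p = 0.960). The list as a whole had a median of -0.14.

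**Figure D4:**
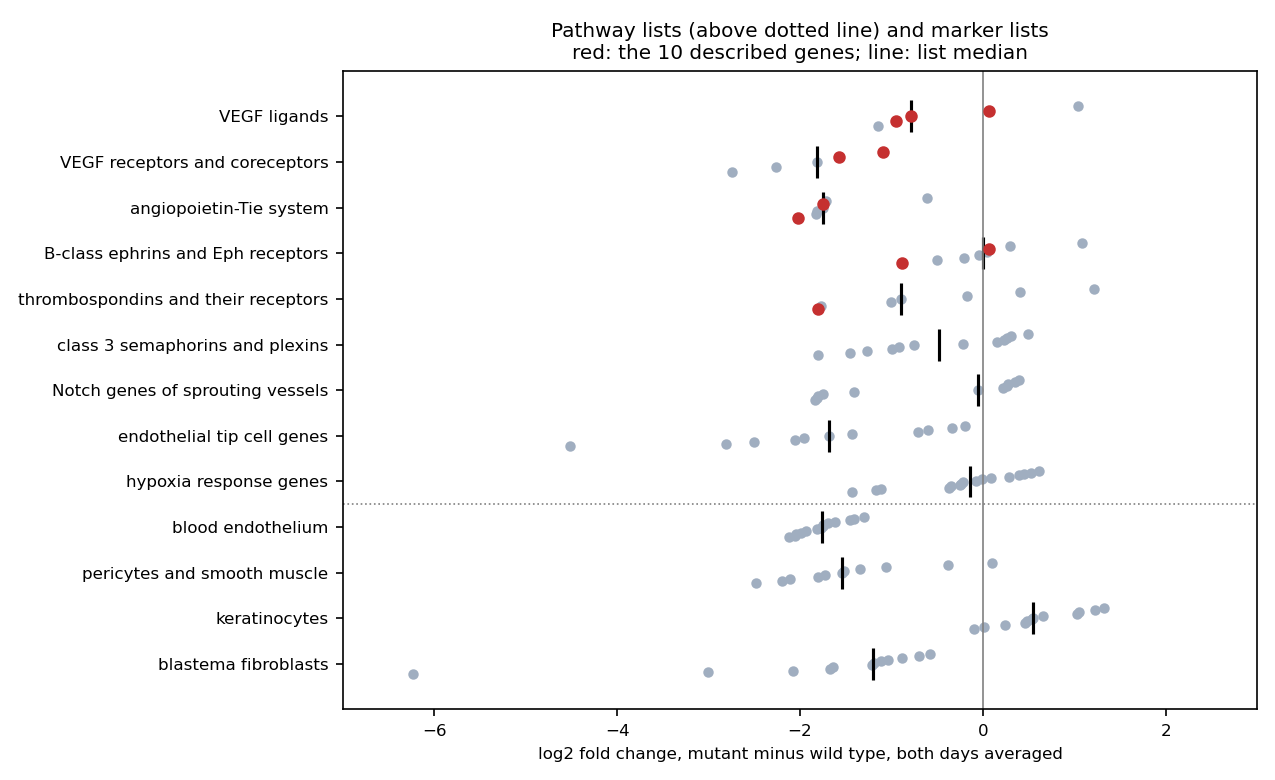
Each point is 1 gene's log2 fold change in mutants relative to wild type averaged over both days, by fixed list, with the described genes in red and a line at each list's median. The VEGF receptor, angiopoietin, tip cell and blood endothelial lists lie left of 0 (medians -1.81, -1.75, -1.69 and -1.76), the B-class ephrin list centres near 0, and keratinocyte markers lie to the right (0.55).

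Between 12 and 14 dpa, none of the 10 genes passed the test in wild type or in mutants, where 0% and 0.0346% of all genes passed, and none differed between days in its genotype effect, where 0% did. DESeq2 and limma-voom also called none of the 10 in these comparisons. Of all 20216 genes, DESeq2 called 52 in wild type, 1299 in mutants and 48 for the difference between days. With limma-voom these counts were 0, 5 and 0. At an unadjusted p under 0.05, edgeR gave 0 of the 10 genes for the difference between days, 1 for wild type and 1 for mutants. At this level stood 1763, 1654 and 3803 of all 20216 genes, in the same order. These comparisons share libraries with the genotype comparisons. The gene in wild type was Vegfa, with a log2 difference of -0.79 (SE 0.25, adjusted p = 0.575) from 12 to 14 dpa. In mutants Vegfa differed by -0.38 (SE 0.21, adjusted p = 0.355), and the difference between the genotypes' changes was 0.41 (SE 0.33, adjusted p = 0.743). The gene in mutants was Nrp2 (-1.13, SE 0.44, adjusted p = 0.222), a value that was -0.44 without mutant 12 dpa replicate 3.

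Across the 10 libraries, levels of the genes that fell moved together, and this describes samples that share genotype and day. On log2 CPM, Nrp1 had a Pearson r of 0.974 with Efnb2, 0.961 with Thbs1 and 0.954 with Angpt2. Ephb4 had an r of -0.256 with Nrp1 and -0.260 with Efnb2, and Vegfb had 0.017 with Vegfa. Likeness to other genes was taken on log2(TPM + 1). Among 11431 genes with a mean of at least 1 TPM, the one most like Nrp1 was its partner receptor Kdr (r = 0.989). Nrp2 was most like Lgmn, a lysosomal protease gene (r = 0.989), and Inhba, an activin subunit gene (r = 0.987). Angpt1 was most like Mest (r = 0.977), a blastema fibroblast marker, followed by Mtcl1 (r = 0.972) and Cd248, a gene of pericytes and fibroblasts (r = 0.967). Vegfa was most like Wfs1 (r = 0.979), Efnb2 most like Trak2 (r = 0.993), and Ephb4 most like Pias2 (r = 0.991). Thbs1 was most like C130074G19Rik (r = 0.986) and Krt42 (r = 0.984), and Angpt2 most like Gpx8 (r = 0.976). For Vegfb the nearest was Shmt2 (r = 0.975), and for Pgf it was S1pr3 (r = 0.970).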

How the data were processed

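Total RNA libraries of 4 groups were made with a stranded kit, per the labels' protocols. The expected counts and TPM values were deposited by the authors per gene and library in the layout of RSEM output, per the file headers, and the expected counts were not normalized. The deposited transcript length per gene is RSEM's own estimate. FastQC, STAR 2.7.8a, RSEM 1.3.0 and build GRCm39 are listed in the submitters' processing notes, and no source used here states the strand setting. RSEM divides reads among genes, so 13.9% of expected counts were not whole, and a copy-rich family can lose or gain reads.

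Expected counts were rounded and tested with edgeR 4.0.16 (R 4.3.3): filterByExpr (minimum count 10, minimum total 15), TMM factors and 1 robust quasi-likelihood fit of 4 group means over all 10 libraries. Contrasts were mutant minus wild type per day and averaged, their difference, and 14 minus 12 dpa within each genotype. Benjamini-Hochberg adjustment ran over 20216 genes with a threshold of 0.05; this edgeR test stands behind every adjusted p given without another tool's or test's name. CPM uses TMM-scaled library sizes. Intervals of 95% use the test's own degrees of freedom. The fitting script was tested on simulated data. Alternatives used DESeq2 1.42.0, limma 3.58.1 (voom, and log2(TPM + 1) or log2(TPM + 0.1)), other scalings and filters, left-out libraries, sex and replicate terms. Groups came from titles; titles and descriptions number the wild type 14 dpa pair in opposite order. Vegfd is listed under an older symbol. The 10 genes, the lists and the tests were chosen with earlier results of these data known. From each list the text names at most the 3 genes with the smallest adjusted p over both days, beside set receptors and ligands; genes that make up a count of 5 or fewer, and Slc2a1, were named after their values were seen. Coordinates are those of RefSeq on GRCm38.p6.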

Additional observations from a re-analysis of the deposited data

Results flagged for a closer look

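Nrp2 in mutant 12 dpa replicate 3 stood at 127.6 CPM, far from the other 5 mutant libraries, of which the nearest was at 46.2 CPM. The gap took 0.761 of the range of the 6 mutant libraries, above Dixon's 95% critical value for 6 samples. It was the only such library in 20 sets of libraries examined (10 genes in 2 genotypes), and chance flags about 1 in 20.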

How the results depend on the processing

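Over both days, 6 to 7 of the 10 genes stayed lower when 1 library was left out. At 12 dpa this range was 3 to 6, with 3 without wild type replicate 2, and at 14 dpa it was 3 to 7, with 3 without wild type replicate 1. The count was 0 in each of these 3 comparisons, and 0 genes of all were called over both days, when the oppositely tagged mutant library was counted as wild type (edgeR; 6, 6 and 0 of the 10 over both days, at 12 dpa and at 14 dpa at an unadjusted p under 0.05). At 14 dpa it was 3 on log2(TPM + 1), on log2(TPM + 0.1) and without both doubted 14 dpa libraries. With male libraries only, a choice made after seeing the data like the omission of the doubted pair, it was 1 at 12 dpa and 3 at 14 dpa, and 3524 genes of all were called over both days, against 8843; fewer samples enter that fit. Elsewhere the cause was not tested. The count of higher genes was 0 under every alternative.

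Signs were followed for the genotype differences of all the described genes, over both days and on each day. For comparisons between the days they were followed only for Vegfa, Pgf and Nrp2, and not in every comparison. Among the values followed, signs turned for 4, none of which passed the test. Signs of the other comparisons between days were not followed. Over both days Vegfb ran from -0.0262 to 0.156 when 1 library was left out, below 0 without wild type 14 dpa replicate 1, and was -0.0068 without the doubted pair. At 14 dpa Vegfb ran from -0.266 to 0.110, above 0 without wild type replicate 2. It was 0.150 on log2(TPM + 1), 0.214 on log2(TPM + 0.1), 0.0165 with the tagged library as wild type and 0.0531 in males. Ephb4 at 12 dpa ran from -0.0759 to 0.0810, below 0 without the mutant 12 dpa library 3 or the wild type 14 dpa library 2. It was -0.0277 with upper quartile factors, -0.0054 with limma-voom, -0.0309 with the strict filter, -0.0374 with the replicate block and -0.0046 with sex as a covariate. For Nrp2 the difference between days ran from -0.914 to 0.0418, above 0 without mutant 12 dpa replicate 3, and was 0.0627 with the tagged library as wild type.

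After group means were subtracted, same-numbered libraries of different groups correlated at -0.121 to 0.086. Differently numbered ones correlated at -0.086 to 0.154, and the numbers were not taken as pairs. With 2 libraries in a wild type group, their deviations mirror each other. With a replicate block, 7, 5 and 7 genes were lower over both days, at 12 dpa and at 14 dpa, with adjusted p of 0.0598 for Angpt1 at 12 dpa and 0.0282 for Nrp2 at 14 dpa; 6972 genes of all were called over both days, and 1927 against 3339 at 12 dpa. On log2(TPM + 1), 71.8% of called genes were higher, against 49.2%. Pgf, with as few as 8 counts in a library, had the largest standard error of the 10 over both days (0.383), followed by Nrp2 (0.338), Angpt1 (0.327) and Angpt2 (0.307).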
